A study of Mus musculus with 6 samples.

Results

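The muscle-type miRNAs miR-1a, miR-133a, miR-133b, miR-206, miR-208b and miR-499 were measured in the sensorimotor cortex of mice with a cut spinal cord (SCI) and of control mice. They were chosen as the reads of 18 to 26 nt that match 1 of their 8 hairpins without mismatch, out of 1174 named miRNA hairpins in the annotation. The SCI group holds 3 libraries from mice whose cord was completely transected at the cervical level, and the control group holds 3 libraries from mice whose cord was exposed but left whole. All animals were adult (postnatal day 90) male C57BL/6J mice, sampled 7 days after surgery, and each cortex was collected on its own. The libraries are of bulk tissue, so fewer cells of a type and less RNA per cell cannot be told apart.

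Each miRNA is cut from a hairpin with a 5p and a 3p arm, and bases 2 to 8 of the mature strand, the seed, lead it to its targets. miR-1 and miR-133a are made from shared transcripts in heart and skeletal muscle, where miR-1 favours differentiation and miR-133 is known for both proliferation and differentiation. miR-206 is typical of skeletal muscle and, in mice, is known for its part in the regrowth of neuromuscular synapses after nerve injury. miR-133b has been studied in midbrain dopamine neurons of mice and in the regrowing spinal cord of zebrafish. miR-208b and miR-499 lie within myosin heavy chain genes and are known for their part in slow muscle fibres.

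In GRCm38, Mir206 (chromosome 1, 20679010 to 20679082, plus strand) and Mir133b (chromosome 1, 20682769 to 20682887, plus strand) lie 3686 bases apart, and both overlap exons of the long noncoding RNA gene Gm28653. Mir1a-1 (chromosome 2, 180389048 to 180389124) and Mir133a-2 (chromosome 2, 180398379 to 180398482) lie 9254 bases apart on the plus strand, outside any other annotated gene. The second copies, Mir1a-2 and Mir133a-1, lie in introns of their host gene Mir133a-1hg and, on the other strand, of Mib1. Mir499 (chromosome 2, 155622880 to 155622958, plus strand) lies in an intron of Myh7b, and Mir208b (chromosome 14, 54975700 to 54975776, minus strand) in an intron of Myh7.

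The mature sequences below, from RefSeq on GRCm38.p6, are shown with the seed in capitals because the seeds are compared in this paragraph. miR-208a-3p, which is not a member, is added for its seed.
miR-206-3p: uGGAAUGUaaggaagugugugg
miR-133b-3p: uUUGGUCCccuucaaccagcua
miR-208b-3p: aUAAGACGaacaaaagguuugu
miR-208a-3p: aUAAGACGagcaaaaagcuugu
miR-499-5p: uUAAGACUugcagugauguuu
The most abundant miR-1a-3p read shares its seed and its first 10 bases with miR-206-3p and differs from it at 4 of 22 positions, so no read of at least 18 nt was found in both. The seeds of miR-208b-3p and miR-499-5p are the same at 6 of 7 bases. The most abundant read was the RefSeq mature sequence for miR-206-3p (64.2% of its reads), miR-208b-3p (81.6%) and miR-499-5p (70.9%).

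Library totals ranged from 14628518 to 23408028 reads in the SCI group and from 10585062 to 24480988 in the control group, and the share of reads in miRNA arms was 78.2%, 72.9% and 73.1% in SCI 1, 2 and 3, against 78.1% to 78.9% in control libraries. SCI 2 and SCI 3 thus had the lowest shares, and they also had the most distinct sequences, at 857270 and 730387. Levels are read counts scaled to the library's total in miRNA arms (CPM, the usual unit), and made comparable between libraries by TMM, with factors of 1.02 to 1.07 in SCI and 0.929 to 0.987 in control libraries. Errors after ± are SDs over the 3 libraries of a group unless named SE. Neuron miRNAs were abundant, but no marker of a brain region was examined, so these levels do not test the cortex label. The 6 arms of the cortical neuron list summed to 177043 to 192301 CPM in SCI libraries and 206062 to 229102 CPM in control libraries. Among them were miR-128-3p (mean 79757 CPM over the 6 libraries) and miR-9-5p (71789 CPM). Control 1 lay farthest from the other libraries on the first principal component, at -9.02. Control 2 and 3 lay at -2.87 and -1.23, and SCI 1, 2 and 3 at 4.89, 2.40 and 5.83. The groups did not overlap on this component, which held 37.8% of the variance.

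All muscle-type arms together summed to 646, 644 and 573 CPM in SCI 1, 2 and 3, against 684, 606 and 628 CPM in control 1, 2 and 3. The 2 groups overlapped. The sum averaged 621 ± 41.6 CPM in SCI and 639 ± 40.0 CPM in control libraries (SD, n = 3 each), which is 0.0449% to 0.0513% of all reads in SCI and 0.0460% to 0.0496% in control libraries. miR-1a-3p alone made up 81.8% to 82.7% of the summed reads in SCI libraries and 83.1% to 85.3% in control libraries.

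Of 16 possible arms, reads were found for 14, which came to 10 arms once arms with the same reads were merged, and 6 of these passed the filter on low counts. The filter can be passed through 1 group alone, so the 6 tested arms are not a sample of all arms. In falling order of mean level they were miR-1a-3p, the joint 3p arm of miR-133a and miR-133b (miR-133-3p), miR-499-5p, miR-206-3p, miR-133a-5p and miR-208b-3p, at ranks 134, 260, 339, 497, 623 and 663 among 1421 arms with at least 1 read. The first 4 were separated by more than the spread between libraries, whereas miR-133a-5p and miR-208b-3p overlapped. Levels of different miRNAs also depend on how well each end is ligated, which was not corrected.

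**Figure D1:**
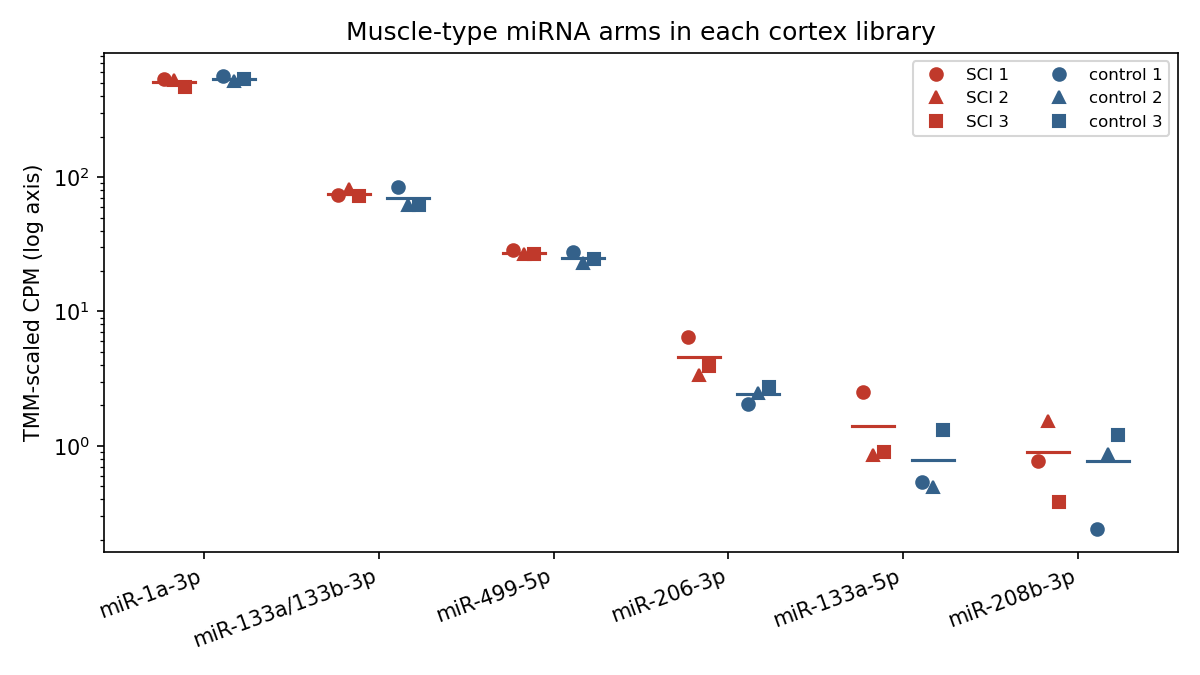
TMM-scaled CPM (log axis) of the 6 tested muscle-type arms in each library, with SCI in red left of control in blue, a symbol per replicate number and a bar at each group mean. miR-133-3p is labelled with both of its names, here and in the other plots. miR-1a-3p lies between 469 and 568 CPM in every library, and for miR-206-3p the 3 SCI libraries lie above the 3 control libraries.

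None of the 6 tested arms passed the test between SCI and control at an adjusted p under 0.05, with edgeR's quasi-likelihood test adjusted over all 690 tested arms. The background was 0% of these arms called, with 14.1% at an unadjusted p under 0.05 (97 arms), and 1 member, miR-206-3p, was among the 56 of these that were higher in SCI (8.12%). limma-voom called 0 arms and DESeq2 called 9, and neither called a member. At an unadjusted p under 0.05, limma-voom had 93 arms and DESeq2 88. The median log2 fold change was 0.18 over the 6 member arms, 5 of them above 0, and -0.02 over all tested arms, where 332 lay above 0 and 358 below. With total count scaling all 6 member arms lay above 0, and the median of all tested arms was 0.09.

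**Figure D2:**
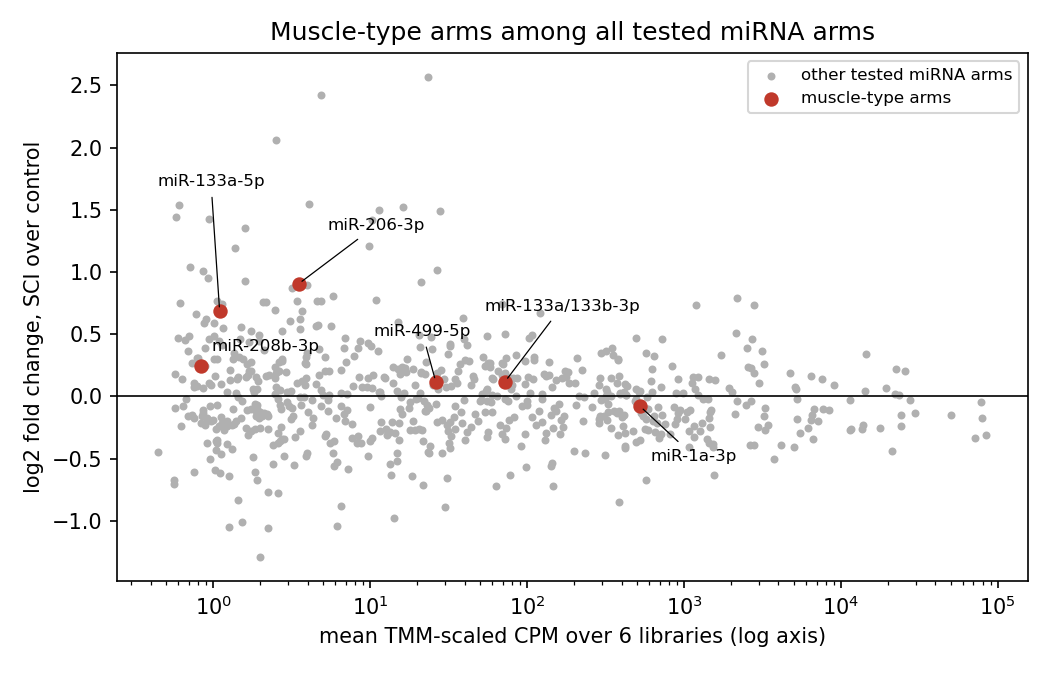
Log2 fold change of SCI over control against mean TMM-scaled CPM (log axis) for the 690 tested arms, with the 6 muscle-type arms in red and named. miR-206-3p, at 0.90, lies highest of them, and miR-1a-3p, at -0.08, lies lowest.

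miR-206-3p, the skeletal muscle member, showed the largest difference of the 6 arms. Its level was 6.45, 3.40 and 3.91 CPM in SCI 1, 2 and 3, against 2.04, 2.49 and 2.73 CPM in control 1, 2 and 3. Every SCI library was thus above every control library, and SCI 1 was the highest. Such separation upward was seen in 8.99% of all tested arms, and in 9.5% of the 221 tested arms with a mean of 1 to 10 CPM. The means were 4.59 ± 1.64 CPM in SCI and 2.42 ± 0.346 CPM in control libraries (SD, n = 3 each), a log2 fold change of 0.90 ± 0.29 (SE), or 1.87-fold. It did not pass (edgeR adjusted p = 0.256, unadjusted p = 0.0127). Without SCI 1 the log2 fold change was 0.60, with an unadjusted p of 0.0516 in edgeR, and without any other single library it lay between 0.78 and 1.08.

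These levels rest on 75, 60 and 61 reads in SCI 1, 2 and 3 and on 34, 20 and 52 reads in control 1, 2 and 3. All 302 were found only in the Mir206 hairpin among miRNA hairpins, and they also match the exon of Gm28653 that overlaps it. All came from the 3p arm, in capitals in the hairpin, which is shown because its other arm gave no read.
Mir206: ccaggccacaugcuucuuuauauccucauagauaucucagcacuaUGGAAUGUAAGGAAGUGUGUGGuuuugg
A count of 0 allows up to 0.258 CPM of miR-206-5p in SCI 1, 0.170 in SCI 2 and 0.192 in SCI 3, and up to 0.180, 0.373 and 0.157 CPM in control 1, 2 and 3 (3 counts per library).

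miR-1a-3p, the most abundant member and the main miRNA of striated muscle, overlapped between the groups. It stood at 534, 529 and 469 CPM in SCI 1, 2 and 3, against 568, 516 and 536 CPM in control 1, 2 and 3. The lowest value was in SCI 3 and the highest in control 1. The means were 511 ± 36.6 CPM in SCI and 540.0 ± 26.1 CPM in control libraries (SD, n = 3 each), a log2 fold change of -0.08 ± 0.13 (SE) with an edgeR adjusted p of 0.798. It was -0.0099 without SCI 3, -0.046 without control 1, and between -0.11 and -0.088 without any other single library. With total count scaling, which moved the median of all tested arms by 0.12, it was 0.034. Its coefficient of variation over the 6 libraries was 6.21%, and 14 of the 237 tested arms with a mean of at least 100 CPM had a lower one (median 14.4%).

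**Figure D3:**
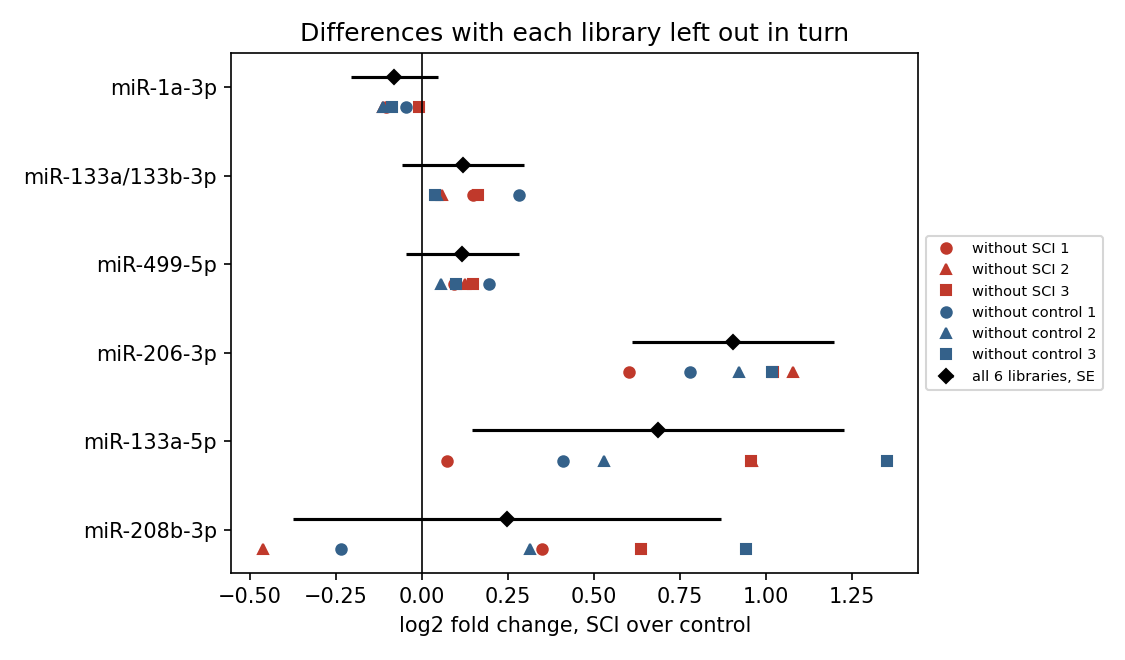
Log2 fold change of SCI over control for the 6 tested muscle-type arms, with all libraries (black, bars are the SE) and with each library left out in turn (coloured). miR-206-3p stays between 0.60 and 1.08, and miR-208b-3p lies between -0.46 and 0.94.

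miR-133-3p, the second most abundant and the partner of miR-1 in muscle transcripts, also overlapped between the groups. Its level was 73.1, 81.1 and 72.2 CPM in SCI 1, 2 and 3, against 84.4, 62.4 and 61.5 CPM in control 1, 2 and 3. Control 1 was the highest of all and the other control libraries the lowest. The means were 75.5 ± 4.91 CPM in SCI and 69.4 ± 12.99 CPM in control libraries (SD, n = 3 each), a log2 fold change of 0.12 ± 0.18 (SE, edgeR adjusted p = 0.784). It was 0.28 without control 1, and leaving out SCI 2 gave 0.06, control 2 gave 0.044 and control 3 gave 0.037.

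The count was joint because the miR-133a and miR-133b strands differ only at their last base. Of 6489 reads, 5821 reached that base, and 4 of these matched the Mir133b hairpin alone while 5817 matched miR-133a alone. The miR-133b-specific share was 0.0687% over all libraries (exact 95% interval 0.0187% to 0.176%). There was 1 such read in each of SCI 1, 2 and 3, against 0, 0 and 1 reads in control 1, 2 and 3. The share averaged 0.103% ± 0.0260 in SCI and 0.0322% ± 0.0557 in control libraries, a difference that rests on single reads (exact permutation test, two-sided, p = 0.2, where 0.1 is the smallest p that 3 libraries against 3 allow). Of the 6489 reads, 670 also match the gene Gm28653. The Mir133b 5p arm gave 0 reads in all libraries. Of all 3p reads, 5 were found only in the Mir133b hairpin, the 4 above among them. A first added A was present on 291 of 7407 miR-133-3p reads (3.93%), counted with their added bases. Its part in the reads that match Mir133b alone was not tested. The 2 copies of miR-133a could not be told apart in the 3p arm, and 91 of the 96 reads of the 5p arm matched both.

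Most miR-133-3p reads did not begin at the base at which RefSeq begins miR-133b-3p. The reference used held no entry for miR-133a-3p, so the miR-133b-3p start stood in for that of miR-133a-3p. In SCI 1, 2 and 3, 56.4%, 55.5% and 55.0% of the reads began 1 base later, against 55.5%, 58.9% and 58.3% of those in control 1, 2 and 3. A later start moves the seed by 1 base, as the capitals in this line show for the shared part of the sequence.
miR-133b-3p, later seed: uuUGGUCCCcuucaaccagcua
The share averaged 55.6% ± 0.716 in SCI and 57.6% ± 1.79 in control libraries, with overlapping groups (exact permutation test, two-sided, p = 0.2, adjusted p = 0.4 over 4 such tests). Reads at the miR-133b-3p start made up 36.7% to 39.8% in SCI and 36.5% to 38.9% in control libraries. Among 380 arms with an annotated start and at least 600 reads, 32 (8.42%) had their most frequent start elsewhere, and the median share at the annotated start was 96.8%. In the other members the start was sharper, at 98.3% of reads for miR-1a-3p (counted from its most abundant read), 96.4% for miR-206-3p and 96.2% for miR-499-5p.

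**Figure D4:**
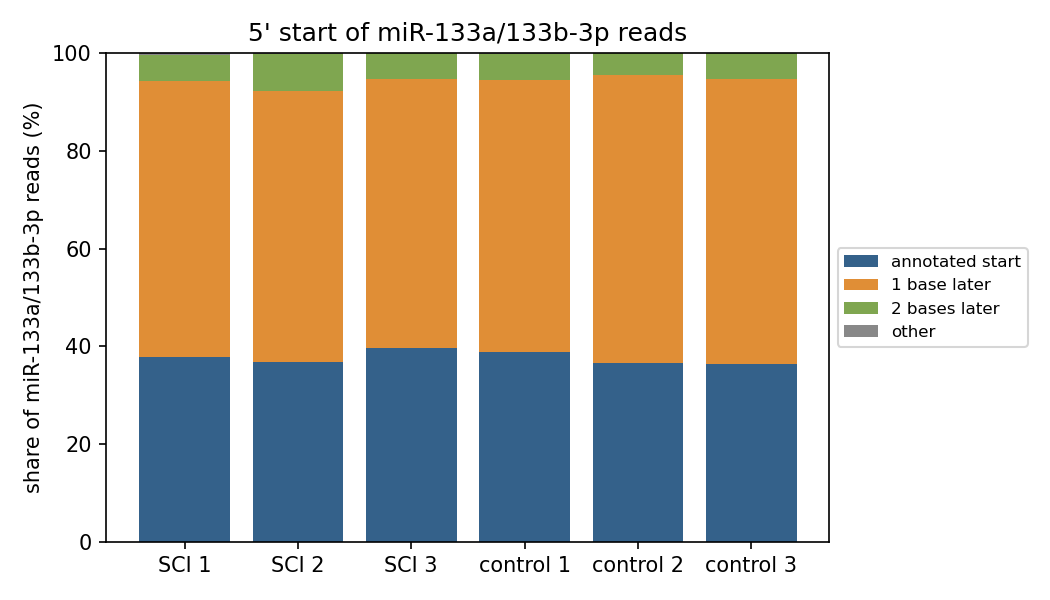
Share of miR-133-3p reads (%) by the position of their first base relative to the annotated start of miR-133b-3p, in each library, SCI left of control. Starts 1 base later make up 55.0% to 58.9% in every library.

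miR-499-5p, encoded within the myosin gene Myh7b, was steady across libraries. It stood at 28.5, 26.8 and 26.6 CPM in SCI 1, 2 and 3, against 27.9, 22.9 and 24.5 CPM in control 1, 2 and 3. Control 1 lay within the SCI range and the other 2 control libraries below it. The means were 27.3 ± 1.05 CPM in SCI and 25.1 ± 2.54 CPM in control libraries (SD, n = 3 each), a log2 fold change of 0.12 ± 0.16 (SE, edgeR adjusted p = 0.772). It was 0.20 without control 1 and 0.06 without control 2. The mature strand, in capitals in the hairpin, took 98.7% of the reads of this hairpin (95% Wilson interval 98.1% to 99.1%).
Mir499: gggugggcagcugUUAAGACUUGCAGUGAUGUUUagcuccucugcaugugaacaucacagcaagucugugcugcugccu
Of its 2335 reads, 19 also match the gene Gm34934.

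miR-208b-3p, encoded within Myh7, was close to the limit of detection. It gave 9, 27 and 6 reads in SCI 1, 2 and 3, against 4, 7 and 23 reads in control 1, 2 and 3. These are 0.775, 1.53 and 0.384 CPM in SCI libraries and 0.240, 0.871 and 1.21 CPM in control libraries. The ranges overlapped widely. The log2 fold change was 0.25 ± 0.62 (SE, edgeR adjusted p = 0.874), and it changed sign when SCI 2 (-0.46) or control 1 (-0.24) was left out. It was 0.94 without control 3 and 0.64 without SCI 3.

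Passenger arms, the strands opposite the main ones, were scarce in both groups. miR-133a-5p stood at 2.496, 0.849 and 0.897 CPM in SCI 1, 2 and 3, against 0.541, 0.498 and 1.31 CPM in control 1, 2 and 3. SCI 1 was the highest, and the groups overlapped. Its log2 fold change of 0.69 ± 0.54 (SE, edgeR adjusted p = 0.598) was 0.072 when SCI 1 was left out, 0.41 when control 1 was and 1.35 when control 3 was. The log2 ratio of 3p over 5p reads of miR-133 averaged 5.93 ± 0.922 in SCI and 6.60 ± 0.923 in control libraries (exact permutation test, two-sided, p = 0.5). The difference in the log2 ratio was -0.68 with all libraries and lay between -1.20 (control 3 left out) and -0.15 (SCI 1 left out). It was -1.002 without SCI 2 and -0.33 without control 1.

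The miR-1a hairpins gave 99.93% of their reads from the 3p arm, with 46692 reads against 31 from the 5p arms. Only the 5p arms tell the 2 copies, on chromosomes 2 and 18, apart, and 26 of those reads came from Mir1a-1 and 5 from Mir1a-2. miR-208b-5p had 1 read in all and miR-499-3p had 31, none of them enough for a test.

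The 3' end of miR-1a-3p departed from its hairpins in many reads. Positions were counted from 1 at the 5' end of the most abundant read, with T for U as sequenced. The change T22C, at the last base of that read, was present in 24.2%, 21.4% and 20.8% of the reads reaching this position in SCI 1, 2 and 3, against 23.2%, 20.7% and 19.6% of those in control 1, 2 and 3. The groups overlapped, at 22.2% ± 1.82 in SCI and 21.1% ± 1.82 in control libraries (exact permutation test, two-sided, p = 0.5), and the difference of 1.01 points was -0.025 when SCI 1 was left out. It was 2.02 when control 1, 1.67 when SCI 3 and 0.25 when control 3 was left out. Of the 9267 reads with this C, 85.7% ended there, and none matched any annotated transcript. The source of this base was not tested.

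Reads with 1 to 3 unmatched bases at the 3' end made up 19.996% to 22.3% of miR-1a-3p reads in SCI libraries and 19.1% to 22.8% in control libraries. For miR-133-3p they made up 11.7% to 13.7% in SCI and 11.4% to 12.8% in control libraries, and for miR-499-5p 2.07% to 3.07% in SCI and 1.60% to 2.70% in control libraries. Among 441 arms with at least 600 reads the median was 11.96%. The arms are not measured alike: at the mature end of miR-499-5p the hairpin goes on with a, so a single added A is not seen. Over all libraries, the most frequent first added base was C for miR-1a-3p, T for miR-133-3p and A for miR-206-3p. The hairpin sequence partly sets which first added bases can be seen, since a base equal to the next hairpin base counts as matched. At the mature end of miR-206-3p, where the hairpin goes on with u, a single added T is thus not seen. It was C in 16.1% of miR-1a-3p reads, a share exceeded by 2 of the 441 arms (median 0.189%), and 9267 of these 9479 reads are those with T22C given above. It was T in 7.76% of miR-133-3p reads, and A in 39 of the 47 such reads of miR-206-3p.

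**Figure D5:**
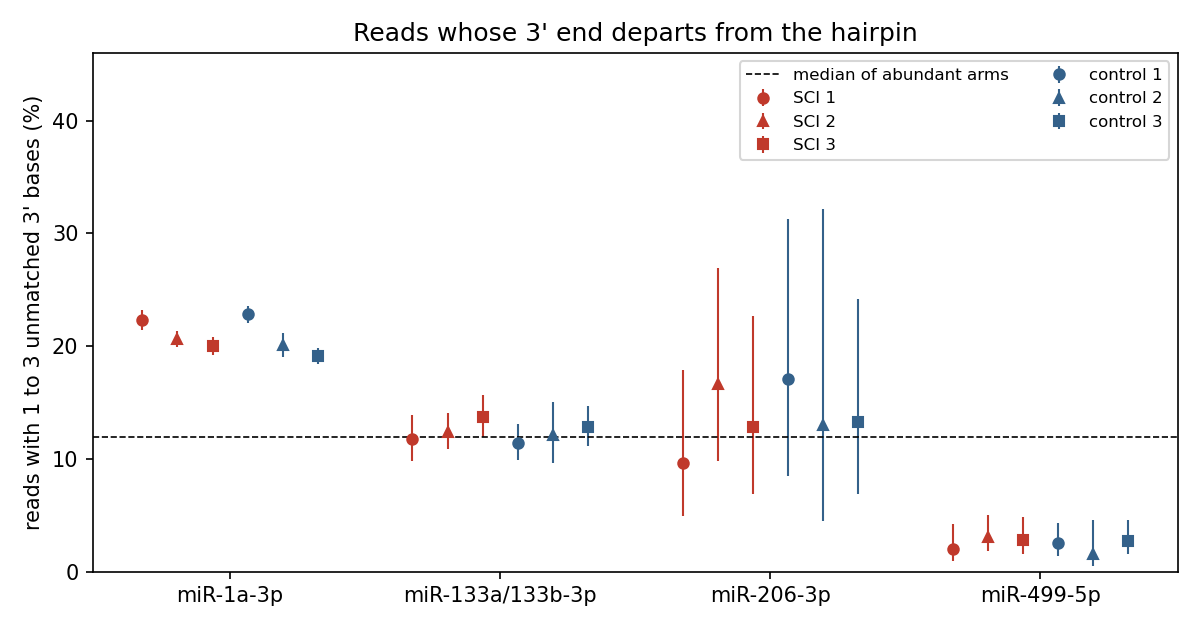
Share of reads (%) with 1 to 3 unmatched 3' bases for 4 muscle-type arms in each library, SCI in red left of control in blue, with 95% Wilson intervals and the median of 441 abundant arms as a dashed line. miR-1a-3p lies between 19.1% and 22.8%, above the median, and miR-499-5p between 1.60% and 3.07%, below it. An added base equal to the next hairpin base is not counted, so the arms are not measured alike.

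Other miRNAs of striated muscle did not pass either. Of 9 named arms, 7 had reads, and these came to 6 arms because miR-486a-5p and miR-486b-5p were counted jointly. Of the 6, 4 were tested, 2 above and 2 below 0 in log2 fold change (median 0.09), and 0 passed in edgeR (1 at an unadjusted p under 0.05). miR-133c and miR-208a-5p had no reads. Reads counted jointly for miR-378a, miR-378b and miR-378c, of metabolic tissues and muscle, averaged 1362 ± 56.6 CPM in SCI and 1536 ± 186 CPM in control libraries, and those of miR-486 and miR-3107, of red blood cells and muscle, 391 ± 139 CPM in SCI and 311 ± 88.8 CPM in control libraries. The list summed to 1623 to 1929 CPM in SCI and 1587 to 2065 CPM in control libraries.

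Markers of smooth muscle and mural cells were, in sum, lower in each SCI library than in all control libraries, at 3544 to 3901 CPM in SCI against 4749 to 5410 CPM in control. The summed level of the neuron arms separated the groups in the same direction. Among single arms, 3 of the 7 smooth muscle arms and 3 of the 6 neuron arms were lower in every SCI library than in all control libraries. In both lists 0 arms were separated upward. Over all 690 tested arms, the groups did not overlap in 138 (20%), in either direction. Of these 138, 62 (8.99% of the 690) were separated upward and the rest downward. These shares are of single arms, and no share was computed for sums. Most of the smooth muscle sum was miR-143-3p, and most of the neuron sum was miR-128-3p and miR-9-5p. All 7 smooth muscle arms had reads and were tested, and 3 lay above and 4 below 0 (median -0.25), with 0 passing in edgeR and 1 at an unadjusted p under 0.05. The 3 separated downward were miR-143-3p and both arms of the miR-145a hairpin. miR-143-5p (log2 fold change -0.53) overlapped between the groups. So did the 3 above 0, which were miR-214-3p (0.03), the joint 3p arm of miR-199a and miR-199b (0.003) and miR-199a-5p (0.05). The most abundant of the 7 were miR-143-3p, at 3074 ± 147 CPM in SCI and 4370 ± 355 CPM in control libraries, and miR-145a-5p, at 427 ± 41.9 CPM in SCI and 519 ± 26.6 CPM in control libraries. The 7 blood arms summed to 1634 to 2461 CPM in SCI and 1972 to 2488 CPM in control libraries, with 3 above and 4 below 0 and none passing in edgeR (0 at an unadjusted p under 0.05). The most abundant were miR-150-5p, of lymphocytes, at 976 ± 71.5 CPM in SCI and 1183 ± 141 CPM in control libraries, and the red cell miR-451a, at 720 ± 319 CPM in SCI and 574 ± 160 CPM in control libraries. Of the 6 neuron arms 2 lay above and 4 below 0 (median -0.14), with 0 passing in edgeR and 2 at an unadjusted p under 0.05. The 2 above 0 were miR-124-3p, at a log2 fold change of 0.34, and miR-137-3p, at 0.16, and both overlapped between the groups. The 3 separated downward were miR-128-3p (-0.18), miR-9-5p (-0.34) and miR-132-3p (-0.44). The part of these cell types in the level of miR-206-3p was not tested.

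The arms whose pattern over the 6 libraries was most like a member's were found by the mean absolute difference of centred log2 CPM. For miR-133-3p they were miR-203-3p (0.0225, against a median of 0.254 over all other arms) and miR-16-1-3p (0.0524). Those nearest to miR-1a-3p were miR-495-5p (0.0465) and miR-30e-3p (0.0470), against a median of 0.206. For miR-206-3p they were miR-7055-5p (0.114) and miR-488-5p (0.115), against a median of 0.428. miR-7055-5p averaged only 0.967 ± 0.235 CPM in SCI and 0.458 ± 0.142 CPM in control libraries. That is near the pseudocount of 0.5, which shrinks log2 differences at low levels. miR-488-5p averaged 4.28 ± 1.03 CPM in SCI and 2.51 ± 0.145 CPM in control libraries.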

How the data were processed

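The authors deposited, for each of the 6 libraries, raw read counts of every distinct read sequence, per the file headers. Not given in the sources used here are the adapter trimmer, aligner and filters. The submitters' processing notes name GRCm38. Per the labels' protocols, RNA was extracted with the mirVana kit and libraries were made with HD adapters.

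Reads of 18 to 26 nt were matched, sense and without mismatch, to the GENCODE M21 hairpins, and the arm was set by the read's midpoint. Arms were merged if their most abundant read was the same or if they had 50% or more of the smaller arm's reads in common, and reads still in several arms (0.100% to 0.153% of reads) were left out. RefSeq sequences were matched by miRNA name. All arms were tested with edgeR 4.0.16 (TMM, filterByExpr with a minimum count of 10, SE from the F statistic) in R 4.3.3, SCI over control without covariates, and adjusted by Benjamini-Hochberg. The procedure was tested on simulated data. DESeq2 1.42.0 and limma 3.58.1 were alternatives. Single values were compared with exact permutation tests (scipy 1.17.1). Without molecular identifiers in the reads, intervals and detection limits cover only counting error. The libraries differed pairwise far beyond sampling noise (chi-square per degree of freedom 112 to 1019), and p-values measure the spread between them.

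The members, lists and rules were chosen with earlier results of these data known. The start and last-base shares of miR-133 and miR-1a were chosen after their values were seen. Every member arm is accounted for, and values per library are given for those tested. Of each list the 2 most abundant arms are named, with more of the smooth muscle and neuron lists. For 3 members the 2 arms most alike are named (log2 CPM with a pseudocount of 0.5).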

Additional observations from a re-analysis of the deposited data

How the results depend on the processing

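The number of member arms that passed stayed at 0 under all 17 alternatives. The number of all arms that passed, 0 in edgeR, was 9 with DESeq2 as the test, 30 of 1421 when low counts were not filtered, and 0 to 7 with 1 library left out. With total count scaling the summed level of the members was 31.8 CPM higher in SCI, against -18.2 with TMM, and lay between -34.7 and 5.80 with 1 library left out. The log2 fold change of miR-1a-3p was 0.034 with total count scaling, relative to a median of 0.09 over all arms. That of miR-208b-3p lay between -0.46 and 0.94, and the T22C difference between -0.025 and 2.02 points, with 1 library left out. The cause of these changes was not tested. miR-206-3p stayed above 0 under all 17 alternatives (0.60 to 1.08), with an edgeR adjusted p of 0.0832 to 0.677 where edgeR was used. With the replicate number as a block, 0 arms passed, miR-206-3p was at 0.89 and the 3p over 5p difference at -0.68. Whether the numbers mark a pairing cannot be told with 3 libraries per group. Same-numbered libraries deviated together with correlations of -0.087 to 0.22. SCI 1 correlated best with control 1 (0.22), whereas SCI 2 and SCI 3 correlated best with control 3 (0.25) and control 2 (0.21). Depth limits miR-208b-3p and miR-133a-5p, with fewer than 30 reads in every library, and neither was tested with a minimum count of 50.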

Other observations

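miR-1b-3p, chosen after its values were seen, comes from the hairpin on the strand opposite Mir1a-2. It averaged 2.72 ± 0.503 CPM in SCI and 1.60 ± 0.395 CPM in control libraries (SD, n = 3 each), with every SCI library above every control library. Such separation was seen in 8.99% of all tested arms and in 9.5% of those with a mean of 1 to 10 CPM. Its log2 fold change of 0.76 ± 0.28 (SE) did not pass in edgeR (adjusted p = 0.280). Reads of 21 nt, the length of the RefSeq mature strand, made up 62.5%, 73.6% and 67.0% of miR-499-5p reads in SCI 1, 2 and 3, against 81.9%, 68.5% and 69.4% of those in control 1, 2 and 3. The 2 groups overlapped.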
